A study of Mus musculus with 7 samples.

Results

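The genes described here are the molecular chaperones named as heat shock proteins, together with their J-domain partners and the CCT chaperonin. They were taken by symbol, as every listed gene beginning with Hspa, Hspb, Hspd, Hspe, Hsph, Hsp90, Dnaja, Dnajb or Dnajc, or with Cct and a digit of 2 to 8. The rule found 80 of the 17404 genes in the table, and no expression value entered it. They comprise 14 genes of the HSP70 and HSP110 family, 3 of the HSP90 family, 8 small heat shock proteins, 2 for the mitochondrial chaperonin HSP60/HSP10, 9 CCT genes, 42 J-domain genes (4 of class A, 11 of class B and 27 of class C), and Hspbp1 and Hspbap1, which are named for binding a heat shock protein. Alpha B-crystallin (Cryab) and the first CCT subunit (Tcp1) belong to these families by sequence but not by name, and their values are given beside their relatives.

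RNA-Seq was performed on neonatal heart ventricle from a pair of closely related substrains, BALB/cByJ (3 libraries) and BALB/cJ (4 libraries), at postnatal day 4 (P4), a stage at which many cardiomyocytes are still in the cell cycle. BALB/cByJ carries a natural deletion that removes most of Cyth1 and leaves a null allele, whereas BALB/cJ carries a retroviral insertion in an intron of Zhx2, and no treatment was given to either. By the sample labels and the Methods, each library was made from pooled ventricles of 3 to 4 pups (the Results text gives another number), so the spread within a strain is that between pools, and each strain is a single inbred line with all of its other alleles. The strains differ in cardiomyocyte ploidy profile, in the share of mononuclear cells and in how many of those have a diploid nucleus. They were compared to look for genes behind this difference, and the chaperones were not the subject of that search.

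Chaperones bind unfolded stretches of other proteins, and HSP70 proteins do so in cycles of ATP hydrolysis that a J-domain protein starts and a nucleotide exchange factor ends. HSP90 takes over clients such as kinases and steroid receptors at a late stage of folding, the barrel-shaped chaperonins HSP60/HSP10 and CCT enclose a client, and small heat shock proteins hold unfolding proteins without ATP. Heat shock factor 1 induces many of the cytosolic genes under stress through heat shock elements, the unfolded protein response induces the endoplasmic reticulum (ER) members through ER stress elements, and heart muscle holds large amounts of small heat shock proteins bound to its contractile apparatus.

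RefSeq promoter windows (250 bases before to 50 after an annotated start, GRCm38.p6, the mm10 build that the submitters name) were at hand for 65 of the 80 genes. Searched on both strands, the 3-unit heat shock element (GAA, any 2 bases, TTC, any 2 bases, GAA) lay in the window of 4 of these 65 genes (6.15%) and in that of 0.662% of all 27025 genes with a window. The 2-unit form (GAA, any 2 bases, TTC), which every 3-unit match contains, lay in 15 of the 65 (23.1%) and in 9.04% of all genes with a window. The ER stress element (CCAAT, any 9 bases, CCACG) lay in 3 of the 65 (4.62%) and in 0.137% of all genes with a window. A match is a run of letters and not evidence of binding. One match per gene to the 3-unit element and each match to the ER stress element follow, with the fixed bases in capitals, since these genes include the ones whose levels varied together or against each other between pools.
Hspd1: GAAccTTCcgGAA
Hspe1: GAAggTTCtaGAA
Dnajb6: GAAtcTTCcgGAA
Hsph1: GAActTTCcaGAA
Hspa5: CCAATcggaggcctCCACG
Hsp90b1: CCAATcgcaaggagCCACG
Hsp90b1: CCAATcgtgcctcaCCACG
Dnajc3: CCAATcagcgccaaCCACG

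Of the longer stretches below, the first lies before Dnajc28, the only one of the genes called between the strains, at chr16:91619000-91619249 on the minus strand. It holds neither heat shock element form nor the ER stress element. The second lies before Hspb6, which had the most negative difference, at chr7:30553051-30553300 on the plus strand, with its 2-unit heat shock element in capitals. This stretch precedes one of the annotated starts of Hspb6 (30553301) and lies inside the span of the gene (30552535 to 30555443), downstream of another start. The third lies before Hspa5, which varied most within a strain as a fold among the members with a mean of at least 100, at chr2:34771840-34772089 on the plus strand, with its ER stress element in capitals. The last is the stretch between divergent annotated starts of Hspd1 and Hspe1 (chr1:55087933-55088147, plus strand, 215 bases), with the run covered by the overlapping 3-unit heat shock elements in capitals.
Dnajc28: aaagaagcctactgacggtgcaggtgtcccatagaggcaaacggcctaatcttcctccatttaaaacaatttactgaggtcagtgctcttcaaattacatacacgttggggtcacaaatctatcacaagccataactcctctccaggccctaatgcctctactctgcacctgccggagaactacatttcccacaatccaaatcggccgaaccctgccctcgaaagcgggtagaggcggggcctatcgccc
Hspb6: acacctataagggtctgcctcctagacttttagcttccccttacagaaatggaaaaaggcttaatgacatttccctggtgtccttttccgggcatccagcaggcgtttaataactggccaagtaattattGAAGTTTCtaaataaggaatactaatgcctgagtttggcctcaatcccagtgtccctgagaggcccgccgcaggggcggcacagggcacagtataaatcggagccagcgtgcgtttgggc
Hspa5: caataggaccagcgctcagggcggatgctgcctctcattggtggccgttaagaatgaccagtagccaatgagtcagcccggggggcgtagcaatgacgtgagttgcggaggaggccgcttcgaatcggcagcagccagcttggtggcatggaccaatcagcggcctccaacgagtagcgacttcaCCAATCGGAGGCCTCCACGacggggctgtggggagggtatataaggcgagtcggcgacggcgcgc
Hspd1-Hspe1: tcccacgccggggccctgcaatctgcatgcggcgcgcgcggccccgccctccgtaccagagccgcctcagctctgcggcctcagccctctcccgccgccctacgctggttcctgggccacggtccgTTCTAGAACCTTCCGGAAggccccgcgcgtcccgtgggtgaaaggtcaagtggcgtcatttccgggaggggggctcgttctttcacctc

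The deposited table gives 1 expression value per gene and library, normalized for depth and transcript length, without a statement of FPKM or TPM. How many reads lie behind a value is unknown. Values of all genes summed to between 543023 and 628977 per library, and 11815 to 11979 genes reached a value of 1. All 11 cardiomyocyte markers checked were well above 0 (means of 45.8 to 20184), as the ventricle label requires. Summed Y-linked expression was higher in the BALB/cByJ pools (80.2 to 128) than in the BALB/cJ pools (0.04 to 37.6), so the sex makeup of the pools differed with strain. Library sums over the 80 genes were 5639, 6276 and 6279 in BALB/cByJ, against 6319, 6285, 5859 and 5818 in BALB/cJ, and overlapped.

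The strain difference was tested with limma on log2(value + 1) for each of 12715 genes whose mean reached 0.5, with p-values adjusted over all of them, and those with an adjusted p under 0.05 count as called. Log2 fold changes are BALB/cByJ over BALB/cJ, and the added 1 understates those of low genes. Of the 80 genes, 73 were tested and 1 was called, Dnajc28, which was higher in BALB/cByJ. That is 1.37% of the tested members, against 1.65% of all genes tested (0.771% called higher and 0.881% called lower). No member was called lower. At an unadjusted p under 0.05 there were 2 members higher (5.06% of all genes tested were) and 6 lower (13.3% of all genes tested), together 11% of the tested members against 18.3% of all genes. Libraries of the strains did not overlap for 7 members, 9.59% of those tested, against 17% of all genes tested. Higher in every BALB/cByJ library were Cct8, Dnajc10 and Dnajc28 (4.33% of all genes tested were), and lower in every one were Hspa1l, Dnajc18, Dnajb1 and Hspb6 (12.6% of all genes tested).

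The members' differences lay on both sides of 0. The median log2 fold change of the tested members was 0.00 and that of all genes tested was -0.07. Of the members, 37 lay above 0 and 36 below, against 4423 and 8292 of all genes tested. The members' estimates ran between -0.53 (Hspb6) and 0.52 (Dnajc28). On the scale of log2(value + 1), the 95% interval lay within a 1.5-fold difference in either direction for 66 of the 73 members. It lay within 2-fold for all 73. For members with values near 1 the added 1 narrows these intervals, so they do not bound the fold of the values themselves. Hspa1a, for example, had a ratio of strain means of 1.37 and a log2 fold change of 0.25. For 67 of the 73 members the difference of strain means was smaller than the widest range within a strain. Bulk values cannot tell fewer cells of a type from less RNA per cell, which holds for every comparison below.

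**Figure D1:**
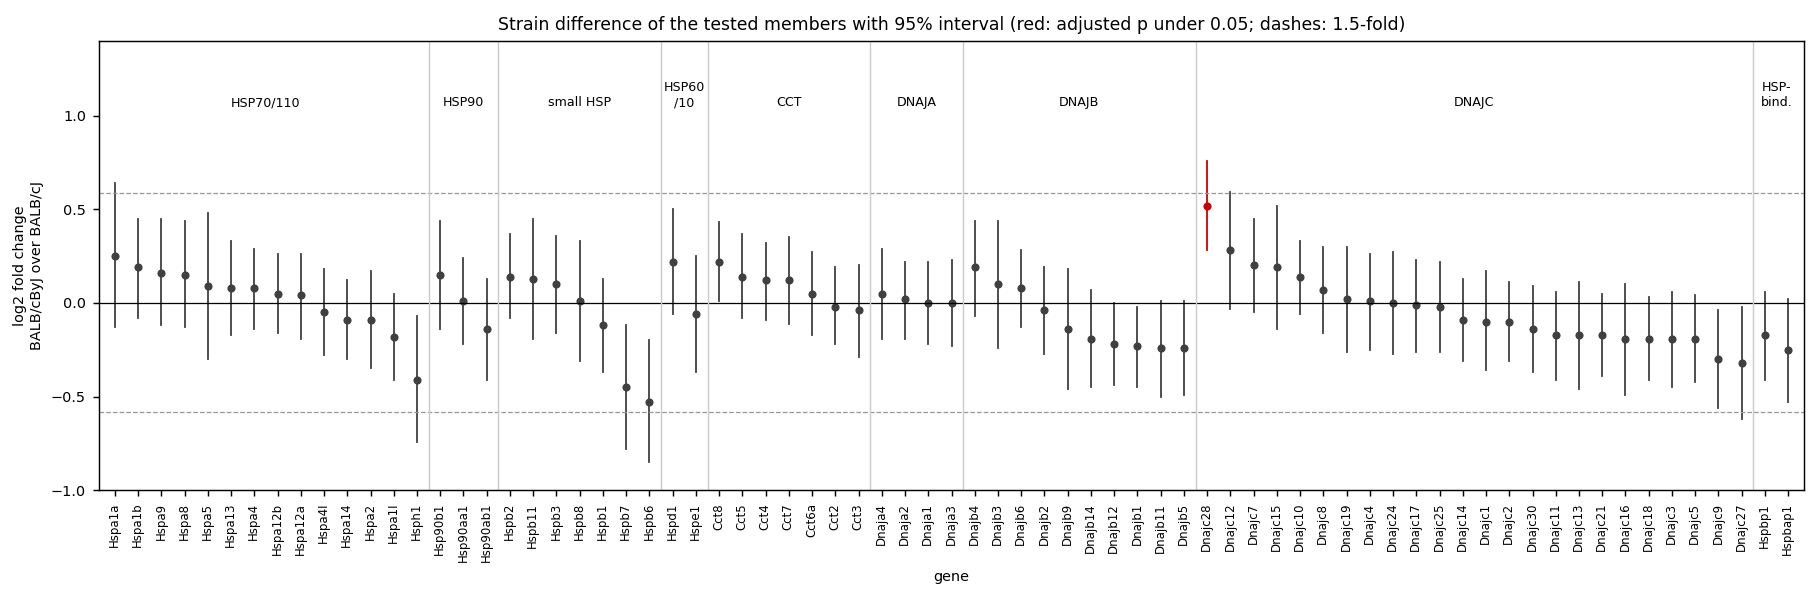
Log2 fold change (BALB/cByJ over BALB/cJ) of the 73 tested members, as points with 95% intervals from limma, grouped by family and ordered within each family. The single red point is Dnajc28 at 0.52, and most intervals cross 0 and stay inside the dashed lines at a 1.5-fold difference.

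Levels spanned a wide range. Hspa8, the constitutive cytosolic HSP70, had the highest mean over the 7 libraries (901), followed by Hspb7 (544), Hsp90ab1 (483), Hspb1 (320) and Hspa9 (276). In all, 17 members had a mean of at least 100, and 14 had a mean under 5. None of those 17 was called, and their ratios of strain means (BALB/cByJ over BALB/cJ) ran between 0.676 and 1.172. The highest library exceeded the lowest by a median of 1.35-fold over the tested members, and by 2-fold or more for 6 of them.

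**Figure D2:**
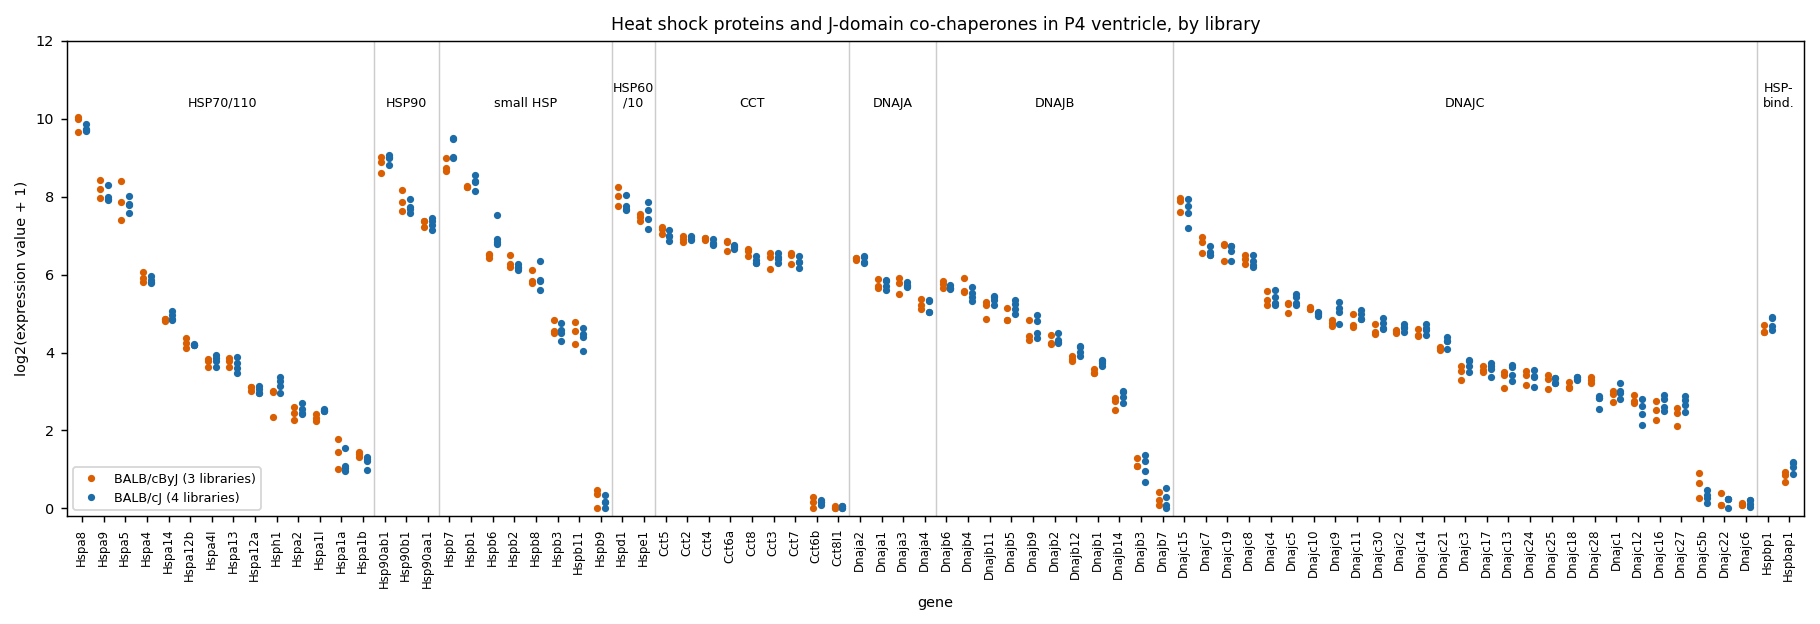
Level of each of the 80 members in each library, as log2(expression value + 1) on the vertical axis, with BALB/cByJ points left of BALB/cJ points for each gene and genes ordered by mean within family. Hspa8 and Hspb7 stand highest, the points of the strains interleave for most genes, and 7 genes near 0 were not tested.

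In the HSP70 and HSP110 family none of 14 genes was called, and 9 estimates were above 0 and 5 below. Hspa8 had values of 812, 1012 and 1054 in BALB/cByJ, against 937, 818, 832 and 845 in BALB/cJ. The lowest and the highest library were both BALB/cByJ, and the log2 fold change was 0.15 (standard error, SE, 0.13, limma adjusted p = 0.561). Hspa9, the mitochondrial HSP70 that pulls proteins through the import channel, was at 250, 342 and 292 in BALB/cByJ and at 315, 253, 244 and 239 in BALB/cJ. It was highest in the second BALB/cByJ library, and the strains overlapped (log2 fold change 0.16, adjusted p = 0.533 from limma).

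The stress-inducible genes Hspa1a and Hspa1b were near the bottom of the range. Hspa1a was at 2.44, 1.01 and 1.72 in BALB/cByJ and at 1.94, 1.11, 1.07 and 0.93 in BALB/cJ. Hspa1b was at 1.63, 1.72 and 1.49 in BALB/cByJ and at 1.33, 1.49, 1.43 and 0.97 in BALB/cJ. Neither separated the strains, with adjusted p of 0.467 and 0.431 from limma. The copies are near-identical, with transcripts alike at 93.6% of 2701 aligned bases, and how reads were assigned between them is not known here, so the split between them is uncertain. Hspa1l, their neighbor, known for expression in testis, had values of 3.72, 4.02 and 4.34 in BALB/cByJ, all below the 4.62, 4.71, 4.66 and 4.81 in BALB/cJ, without passing the test (-0.18, adjusted p = 0.372 from limma).

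Hsph1 encodes HSP105, a heat-inducible HSP110 that acts as a nucleotide exchange factor for HSP70. It was at 4.09, 7.10 and 6.86 in BALB/cByJ, against 7.78, 9.38, 6.78 and 8.67 in BALB/cJ. The first BALB/cByJ library was the lowest and the others reached the BALB/cJ range, with a log2 fold change of -0.41 (SE 0.16, limma adjusted p = 0.196), or -0.19 without that library (adjusted p = 0.565 from limma).

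Hspa5 (BiP), the HSP70 of the ER, had the widest spread within a strain, as the fold of the highest over the lowest library, among the members with a mean of at least 100. Its values were 167, 233 and 335 in BALB/cByJ and 258, 192, 222 and 218 in BALB/cJ, so that the BALB/cByJ pools alone spanned the whole range. Hsp90b1 (GRP94), the HSP90 of the ER, was at 196, 232 and 289 in BALB/cByJ and at 246, 190, 204 and 213 in BALB/cJ. The order of the BALB/cByJ libraries was the same for both genes, and among the BALB/cJ libraries the first was highest and the second lowest for both. Log2 fold changes were 0.09 (adjusted p = 0.828 from limma) for Hspa5 and 0.15 (adjusted p = 0.576 from limma) for Hsp90b1. Without the third BALB/cByJ library the estimate for Hspa5 was -0.16. Their RefSeq windows are among the few holding an ER stress element, as printed above.

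Dnajc3 (P58IPK), an ER partner of BiP with the same element, was at 8.88, 10.4 and 11.6 in BALB/cByJ and at 12.7, 10.3, 11.6 and 13.1 in BALB/cJ (-0.19, adjusted p = 0.395 from limma). Dnajb11 (ERdj3), which delivers unfolded proteins to BiP, was at 27.8, 36.1 and 38.0 in BALB/cByJ and at 42.9, 42.1, 36.1 and 39.7 in BALB/cJ (-0.24, adjusted p = 0.287 from limma, or -0.11 without the first BALB/cByJ library). Both were lowest in the first BALB/cByJ library, as was Hspa5. Over 14 ER chaperones (the members of the ER and Hyou1, the HSP110 of the ER), 4 estimates were above 0 and 10 below, the median was -0.16, and none was called. Of all genes tested, 4423 estimates were above 0 and 8292 below, with a median of -0.07. The sum of the proliferating-cell markers was also lowest in the first BALB/cByJ library. It was 145 there, against 178 and 237 in the other BALB/cByJ pools and 197 to 228 in the BALB/cJ pools. Not every marker was lowest there (Cdk1 was at 27.9, and at 27.2 in the second BALB/cByJ library). The part of proliferating cells in the ER values was not tested.

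The cytosolic HSP90 genes were abundant and close between strains. Hsp90ab1, the constitutive form, was at 474, 513 and 388 in BALB/cByJ and at 532, 509, 513 and 452 in BALB/cJ (-0.14, adjusted p = 0.588 from limma). Hsp90aa1, the inducible form, was at 165, 148 and 165 in BALB/cByJ and at 153, 140.4, 165 and 175 in BALB/cJ. Its log2 fold change was 0.01, with a 95% interval of -0.22 to 0.24. A list of 12 cytosolic HSP70, HSP110, HSP90, small heat shock and J-domain genes held the heat-inducible members. It also held Hspa8 and Hsp90ab1, the constitutive forms, so it is not a set of stress-inducible genes alone. None of the 12 was called, and their median log2 fold change was 0.01.

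The small heat shock proteins held the most negative differences. Hspb6 (HSP20), a muscle protein known as a target of protein kinase A, was at 91.6, 84.4 and 89.5 in BALB/cByJ, against 119, 183, 112 and 108 in BALB/cJ. Every BALB/cByJ library was below every BALB/cJ library, and the BALB/cJ group was stretched by its second library. Means were 88.5 ± 3.70 (SD, n = 3) in BALB/cByJ, against 131 ± 35.3 (SD, n = 4) in BALB/cJ, with a log2 fold change of -0.53 (standard error 0.15, 95% interval -0.85 to -0.20) and an adjusted p of 0.0944 from limma, which does not pass. Without the second BALB/cJ library the log2 fold change was -0.35 (adjusted p = 0.118 from limma). Of 36 tested genes within 500 kb of Hspb6, 1 was called (1.65% of all genes tested were), Wdr62, which was lower in BALB/cByJ (log2 fold change -0.56, adjusted p = 0.0378 from limma, and 0.0529 to 0.176 on leaving out any 1 library).

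Hspb7, a cardiovascular small heat shock protein and the second most abundant member, was at 426, 512 and 402 in BALB/cByJ, against 728, 709.7, 517 and 512 in BALB/cJ. The first and second BALB/cJ libraries stood above the rest, and the other BALB/cJ libraries were level with the second BALB/cByJ library. Means were 447 ± 58.1 (SD, n = 3) in BALB/cByJ, against 617 ± 118 (SD, n = 4) in BALB/cJ, and the log2 fold change of -0.45 (standard error 0.15) did not pass (adjusted p = 0.145 from limma). With summed Y-linked expression as a covariate it was -0.17 (adjusted p = 0.644 from limma).

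Other members of this family were closer between strains. Hspb1 (HSP25), a heat-inducible actin-binding chaperone, was at 301, 308 and 301 in BALB/cByJ and at 340.1, 378, 329 and 279.6 in BALB/cJ (-0.12, adjusted p = 0.616 from limma). Hspb8, which works with BAG3 to clear damaged filamin at the Z-disc, was at 54.5, 69.0 and 56.3 in BALB/cByJ and at 55.8, 80.9, 48.0 and 56.7 in BALB/cJ (0.01, adjusted p = 0.983 from limma). Hspb2, a muscle protein that binds the myotonic dystrophy kinase, was at 76.7, 71.8 and 90.4 in BALB/cByJ and at 71.6, 76.5, 70.6 and 67.9 in BALB/cJ. The strains overlapped for all of these, and Hspb2 differed by 0.14 (adjusted p = 0.475 from limma). The whole Hspb2 span (1283 bases on mm10) lies within that of the far more abundant Cryab, so its values are uncertain. Hspb3 and Hspb11, an intraflagellar transport protein despite its name, had log2 fold changes of 0.10 and 0.13.

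Cryab, the relative of Hspb6 that is not named as an Hspb gene, was at 582, 639 and 685 in BALB/cByJ and at 699, 1055, 682 and 646 in BALB/cJ (-0.25, adjusted p = 0.42 from limma). The second BALB/cJ library was thus the highest of all libraries for Hspb1, Hspb6, Hspb8 and Cryab. The same library also had the highest erythroid marker sum, 14579 against 6360 to 9630 in the other BALB/cJ pools and 4347 to 5375 in BALB/cByJ (0 of 5 tested erythroid genes called, with Hba-a1 and Hba-a2 carrying the sum and Hbb-bs and Hbb-bt at or near 0 in every library), and its part in these values was not tested.

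Mural and smooth muscle markers come from cells that also express HSP20 and HSP25. Their sum was 520 to 601 in BALB/cByJ, against 768 to 1139 in BALB/cJ, with none of the markers at 0, and without Acta2 it was 214 to 269 in BALB/cByJ and 253 to 291 in BALB/cJ, which overlap. Of 7 genes, 6 had estimates below 0 and 1 above, Tagln at 0.07 (8292 and 4423 of all genes tested). Their median was -0.27 (-0.07 over all genes tested). Acta2 (-0.96, adjusted p = 0.00909 from limma) and Cnn1 (-1.17, adjusted p = 0.00226 from limma) were called lower (0.881% of all genes tested were). With summed Y-linked expression as a covariate neither was called (adjusted p from limma of 0.174 for Acta2 and 0.0896 for Cnn1), and Acta2 was not called without the third BALB/cByJ library (0.0711). Among the BALB/cJ libraries the sum with Acta2 was lowest in the second, which had the highest Hspb6. Without Acta2 the BALB/cJ sums were 253.3, 273.2, 253.5 and 291.2 in library order. Rgs5 carried most of these sums, at 175, 209, 190 and 232, whereas Cnn1 was at 15.7, 12.2, 11.1 and 13.1. By the sum without Acta2 the library with the highest Hspb6 was neither the lowest nor the highest. The part of these cells in the Hspb6 and Hspb7 values was not tested.

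**Figure D3:**
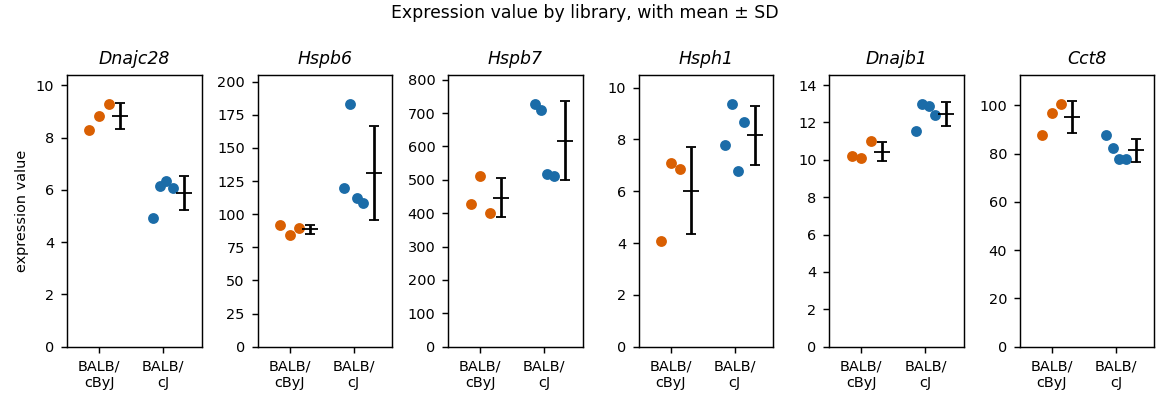
Expression value (linear axis from 0) of 6 members in each library, with the mean and SD of each strain in black, BALB/cByJ left and BALB/cJ right. Only Dnajc28 was called, its BALB/cByJ libraries at 8.31 to 9.30 all lying above the 4.91 to 6.34 of BALB/cJ, and the Hspb6 plot shows the BALB/cJ library at 183 far from the others.

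The mitochondrial chaperonin is made of HSP60 (Hspd1), which forms the folding chamber, and HSP10 (Hspe1), its lid. Hspd1 was at 217, 302 and 258 in BALB/cByJ and at 261, 217, 204 and 202 in BALB/cJ. Hspe1 was at 177, 164 and 187 in BALB/cByJ and at 142, 234, 170.1 and 201 in BALB/cJ. Neither differed between strains by the test, with log2 fold changes of 0.22 (adjusted p = 0.381 from limma) for Hspd1 and -0.06 (adjusted p = 0.85 from limma) for Hspe1.

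The genes lie head to head and share the stretch printed above, yet their values did not move together over the pools. The second BALB/cByJ library had the highest Hspd1 and the lowest Hspe1 of its strain, and the first BALB/cJ library likewise had the highest Hspd1 and the lowest Hspe1 of its strain. Hspa9 followed Hspd1, with deviations of 0.32 and 0.20 (log2, from the mean of the 7 libraries) in those libraries. Dnajc15 and Dnajc19, J-domain proteins of the inner mitochondrial membrane, followed Hspe1, with deviations of -0.10 and -0.50 for Dnajc15 and of -0.27 and -0.27 for Dnajc19.

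Levels of short transcripts also varied between pools. The canonical transcript of Hspe1 has 774 bases and that of Hspd1 2423. The median deviation of the 522 tested genes with a transcript under 1000 bases was 0.11, -0.14 and 0.17 in BALB/cByJ and -0.23, 0.13, 0.003 and 0.006 in BALB/cJ. It was lowest in the same libraries of each strain as Hspe1. In the fourth BALB/cJ library Hspe1 was above and Hspd1 below its mean. Over 12209 tested genes, Spearman correlations of deviation with transcript length were -0.18, 0.19 and -0.31 in BALB/cByJ. They were 0.29, -0.33, 0.10 and 0.29 in BALB/cJ. The Dnajc15 and Dnajc19 transcripts have 6507 and 1754 bases. Whether these lengths are those used to normalize the values is not known here. The part of transcript length in the chaperonin values was not tested.

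**Figure D4:**
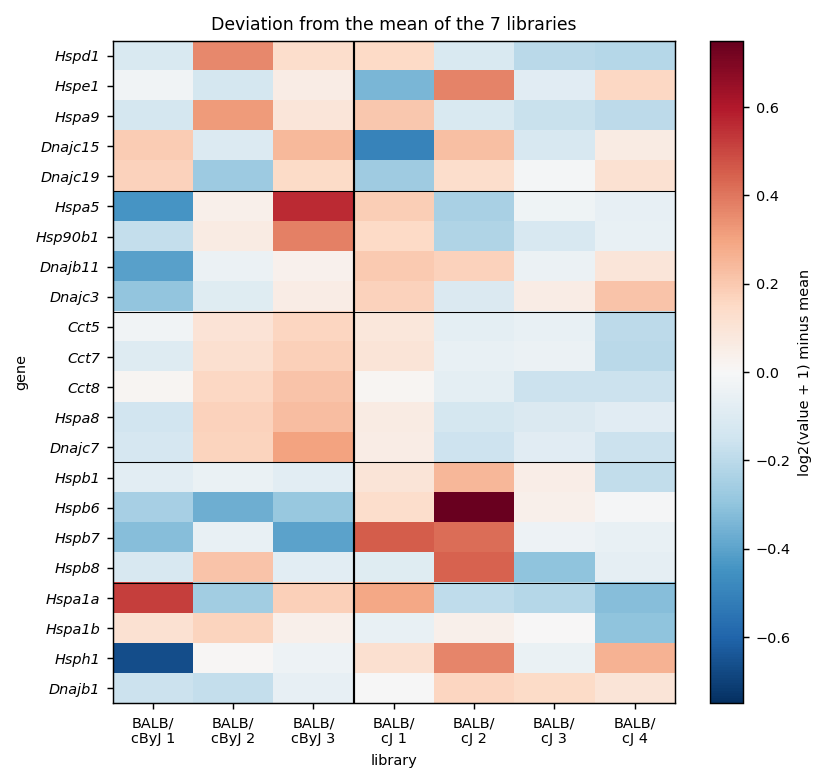
Deviation of log2(value + 1) from the mean of the 7 libraries for 22 members (rows), in the BALB/cByJ libraries left of the black line and the BALB/cJ libraries right of it, red above and blue below the mean. Hspd1 and Hspa9 are red where Hspe1, Dnajc15 and Dnajc19 are blue (second BALB/cByJ and first BALB/cJ library), and Hspb6 reaches 0.74 in the second BALB/cJ library.

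CCT, also called TRiC, folds actin and tubulin in a double ring of different subunits. All 7 tested subunit genes had similar levels, with means of 82.2 to 132. None was called, and 5 estimates were above 0 and 2 below, with a median of 0.12. Cct8 was at 87.7, 96.8 and 101 in BALB/cByJ, against 87.7, 82.4, 77.7 and 77.6 in BALB/cJ. The strains met at 87.71 in BALB/cByJ and 87.66 in BALB/cJ without overlapping, and the log2 fold change was 0.22 (SE 0.10, limma adjusted p = 0.252). The span of Cct8 overlaps that of Usp16 by 191 bases on mm10.

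Cct5 was at 130, 142 and 148 in BALB/cByJ and at 140, 126, 127 and 115 in BALB/cJ (0.14, adjusted p = 0.485 from limma). Cct4 and Cct7 each differed by 0.12, with adjusted p of 0.538 and 0.581 from limma. The median deviation over the subunits was -0.02, 0.10 and 0.12 in BALB/cByJ and 0.07, -0.06, -0.04 and -0.11 in BALB/cJ, which not every subunit followed (Cct2 was lowest in the third BALB/cByJ library, at 114, and Cct4 in the first BALB/cJ library, at 107). Hspa8 and Dnajc7, a J-domain protein that passes clients between HSP70 and HSP90, had the same pools above and below their means as this median. So did Hspd1 and Hspa9 of the mitochondrion and Hsp90b1 of the ER, so the pattern was not particular to cytosolic genes. The subunit outside the symbol rule, Tcp1, differed by 0.08.

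Of the J-domain proteins, class A (close relatives of bacterial DnaJ) had estimates close to 0 throughout. Dnaja1 and Dnaja2, cytosolic partners of HSP70, Dnaja3, its mitochondrial counterpart, and Dnaja4 had log2 fold changes of 0.00, 0.02, 0.00 and 0.05, with intervals within a 1.5-fold difference. Dnaja1 was at 51.5, 49.6 and 58.1 in BALB/cByJ and at 47.5, 51.4, 55.7 and 57.6 in BALB/cJ. Levels in this class ran between 36.2 and 83.1 as means.

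Class B held 10 tested genes, of which 3 had estimates above 0 and 7 below (4423 and 8292 of all genes tested), with none called. Dnajb1 (HSP40), the stress-inducible partner of HSP70, was at 10.2, 10.1 and 11.0 in BALB/cByJ, against 11.5, 13.0, 12.9 and 12.4 in BALB/cJ. All BALB/cByJ libraries were lower, with a gap between the strains smaller than the range within either, and the log2 fold change was -0.23 (SE 0.10, limma adjusted p = 0.233). Dnajb12, an ER membrane protein, and Dnajb5, found in heart muscle, differed by -0.22 (adjusted p = 0.281 from limma) and -0.24 (adjusted p = 0.302 from limma), with overlapping libraries. Dnajb6, which keeps proteins from aggregating and is mutated in a human limb-girdle muscular dystrophy, had the highest mean of class B (51.1) and differed by 0.08.

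Class C is diverse, and most of its members share only the J domain. Of 24 tested genes, 9 had estimates above 0 and 15 below (4423 and 8292 of all genes tested), and Dnajc28 was called. Dnajc28 lies on chromosome 16 (91614257 to 91618999 on mm10) and encodes a little-characterised protein. It was at 8.31, 8.84 and 9.30 in BALB/cByJ, against 4.91, 6.16, 6.34 and 6.09 in BALB/cJ. All BALB/cByJ libraries were higher, and the gap between the strains was wider than the range within either. Means were 8.82 ± 0.495 (SD, n = 3) in BALB/cByJ, against 5.88 ± 0.652 (SD, n = 4) in BALB/cJ, with a log2 fold change of 0.52 (SE 0.11, 95% interval 0.28 to 0.76, limma adjusted p = 0.0351).

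The direction held without any one library (0.45 to 0.56), but the call did not. Without BALB/cByJ libraries 1, 2 and 3 in turn the adjusted p from limma was 0.0892, 0.076 and 0.132, and without BALB/cJ libraries 1 to 4 in turn it was 0.0628, 0.0532, 0.0588 and 0.0645. With summed Y-linked expression as a covariate, the log2 fold change was 0.35 (adjusted p = 0.277 from limma), and strain and the sex makeup of the pools cannot be told apart here.

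Genes around Dnajc28 were compared in the same way. Of 15 listed genes with at least part of their span within 500 kb of Dnajc28, 14 were tested and none was called (1.65% of all genes tested were). Their log2 fold changes were -0.30 to 0.18. The neighbors on either side, Gart, an enzyme of purine synthesis, and Tmem50b, differed by 0.02 and -0.13. The span of Dnajc28 overlaps no other RefSeq gene of mm10. Donson, a replication fork protein, had the most negative value (-0.30), the only one of the 14 at an unadjusted p under 0.05.

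**Figure D5:**
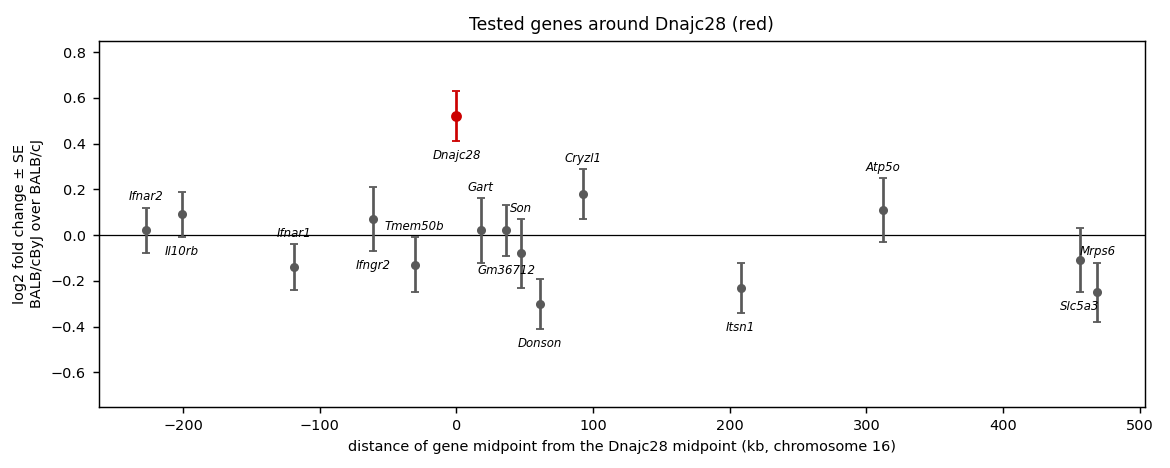
Log2 fold change (BALB/cByJ over BALB/cJ, with standard error) of the tested genes with a midpoint within 500 kb of Dnajc28 on chromosome 16, against distance in kb. Dnajc28 (red) stands at 0.52, above all 14 neighbors, which lie between -0.30 and 0.18.

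Among other class C genes, Dnajc9, a histone chaperone linked to DNA replication, was at 24.6, 27.5 and 25.9 in BALB/cByJ and at 25.8, 31.8, 34.2 and 38.2 in BALB/cJ. The first BALB/cJ library lay within the BALB/cByJ range, and the log2 fold change was -0.30 (SE 0.12, limma adjusted p = 0.213), or -0.59 with summed Y-linked expression as a covariate (adjusted p = 0.0772 from limma). Dnajc27, which carries a Rab-like GTPase domain, was at 4.42, 5.01 and 3.30 in BALB/cByJ and at 5.28, 4.54, 5.85 and 6.44 in BALB/cJ (-0.32, adjusted p = 0.235 from limma). Dnajc12, a partner of aromatic amino acid hydroxylases, was at 5.73, 5.48 and 6.46 in BALB/cByJ and at 4.40, 5.17, 6.01 and 3.43 in BALB/cJ. Its log2 fold change of 0.28 did not pass either (adjusted p = 0.319 from limma).

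Dnajc15, an import-channel partner of Hspa9, was the most abundant J-domain gene, at 237, 194 and 247 in BALB/cByJ and at 147, 244, 192 and 217 in BALB/cJ. The strains overlapped and the first BALB/cJ library was the lowest (0.19, adjusted p = 0.518 from limma, or 0.05 without that library). Dnajc7 was at 92.7, 114 and 125 in BALB/cByJ and at 105, 90.5, 95.2 and 90.3 in BALB/cJ (0.20, adjusted p = 0.364 from limma). Dnajc10 (ERdj5), which reduces disulfides in the ER, and Dnajc18 had libraries that did not overlap, with log2 fold changes of 0.14 (adjusted p = 0.436 from limma) and -0.19 (adjusted p = 0.332 from limma). Dnajc19, whose human counterpart is mutated in a dilated cardiomyopathy with ataxia, differed by 0.02, and its span overlaps that of Fxr1.

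Hspbp1, a nucleotide exchange factor for HSP70, differed by -0.17, and Hspbap1, at 0.60, 0.92 and 0.80 in BALB/cByJ and at 1.30, 1.23, 0.83 and 1.10 in BALB/cJ, by -0.25 (adjusted p = 0.307 from limma). The 7 members below the mean of 0.5 were Cct6b, Cct8l1, Dnajb7, Dnajc5b, Dnajc6, Dnajc22 and Hspb9, and they were left out of the test. Their values stayed below 1 in every library. In all, the spans of 19 members overlap that of another listed gene on mm10, with the use of strand in quantification not given in the sources used here.

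Genes that work with the chaperones were counted from lists of their own. Lists of heat shock factors and their other targets, HSP90 co-chaperones, HSP70 exchange factors, prefoldin and TRiC partners, mitochondrial protein quality control, ER folding genes and crystallins held 113 tested genes together. None was called (1.65% of all genes tested were), and the median was -0.04 (-0.07 over all genes tested). At an unadjusted p under 0.05, 4 of the 113 were higher and 10 lower (5.06% and 13.3% of all genes tested were). Hsf1, the main heat shock factor, differed by -0.16 and Hsf2 by 0.10. Of 17 other heat shock factor targets, Zfand2a had the smallest p, at 6.85, 8.08 and 6.21 in BALB/cByJ and 8.43, 9.13, 9.56 and 11.1 in BALB/cJ (-0.39, adjusted p = 0.114 from limma).

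The smallest adjusted p of these lists were those of Syvn1 (0.0938) and Sel1l (0.0944), from limma, which form the ubiquitin ligase complex that removes misfolded ER proteins. Syvn1 was at 7.51, 8.13 and 7.64 in BALB/cByJ and at 10.7, 8.88, 11.8 and 10.7 in BALB/cJ, a difference of -0.39 on the log2 scale. Sel1l differed by -0.38, and neither overlapped between strains. Among the HSP90 partners, Tomm34, which carries proteins to the mitochondrial import receptor, differed by -0.35 (adjusted p = 0.108 from limma) and Itgb1bp2 (melusin), a muscle co-chaperone, by 0.34 (adjusted p = 0.112 from limma). Bag3, the partner of Hspb8, differed by -0.28 (adjusted p = 0.235 from limma). Of 17 immediate early genes, which respond to handling and tissue stimulation within minutes, Junb (0.72, adjusted p = 0.0346 from limma) and Nr4a1 (1.16, adjusted p = 0.045 from limma) were called higher in BALB/cByJ (0.771% of all genes tested were). With summed Y-linked expression as a covariate neither was called (adjusted p from limma of 0.199 for Junb and 0.19 for Nr4a1). Each kept its call on leaving out the second BALB/cByJ or the third BALB/cJ library, and lost it on leaving out any other library (adjusted p from limma of up to 0.176 for Junb and 0.204 for Nr4a1).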

How the data were processed

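RNA-Seq of pooled P4 ventricles gave 3 BALB/cByJ and 4 BALB/cJ libraries, which BGI Genomics prepared and sequenced. The authors deposited 1 signal table, normalized for depth and length (FPKM or TPM, not stated which), with 2 decimals and the build mm10. Aligner and quantification software were not given in the sources used here. No columns of the authors' comparisons were used. Low values did not come out as whole reads (58.2 to 73.3% within 0.2 of a read in each library), so depth is unknown and no count test was run.

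After a filter for a mean of at least 0.5, log2(value + 1) of 12715 genes was fitted on strain alone in limma 3.58.1 (R 4.3.3), with a trend of variance with level and Benjamini-Hochberg adjustment over all of them. The fit was tested on simulated data. Separate pools of pups are the replicates. RefSeq matched 17289 gene IDs and restored 23 symbols turned into dates. Transcript lengths are those of GENCODE M39 canonical transcripts. Alternatives were another pseudocount, other filters, other scalings, a Y-linked covariate, no variance trend, a replicate block and leaving out each library. Summaries used Python 3.11.15 with pandas 2.3.3 and numpy 2.4.6, and plots matplotlib 3.10.9.

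The genes and lists were chosen with earlier results of these data known. Named were members called, the 12 highest by mean, the 6 with the largest change in each direction, the 4 with the smallest p of each family, the stress-inducible genes, and up to 3 genes with the smallest p of each related list. Named after their values were seen were the other non-overlapping members, Dnajc3, Dnajc19, Dnajb6, Cct2, Hspb3, Hspb8, Hspb11 and Hspbp1, Hsf2, Tcp1, Cryab and the neighbors.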

Additional observations from a re-analysis of the deposited data

Results flagged for a closer look

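Hspb6 in BALB/cJ is flagged because 1 library stood far from the other 3. The second BALB/cJ library had a value of 183.42, and its gap to the nearest library was 0.853 of the whole range of the 4, above Dixon's 95% critical value for 4 samples. Among 35 named members checked in this way it was the only one, and chance alone flags about 1 in 20 such groups.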

How the results depend on the processing

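Beside the 210 genes called, separate fits called 39 with no filter on low values, 58 with the replicate number as a block, 82 with the same 6 libraries and no block, 46 with the Y-linked covariate, and 64 to 187 on leaving out 1 library. The call of Dnajc28 was lost in each of these (0 members called higher, also 0 on leaving out any library), with an adjusted p from limma of 0.113 without the filter, 0.149 with the block and 0.0645 without it on the same libraries, against 0.0282 with a mean of at least 2, 0.0374 with a pseudocount of 0.1, 0.013 with quantile normalization, 0.0149 with median-ratio scaling and 0.0354 without the variance trend. The replicate numbers do not pair the pools (correlations of deviations of -0.194, -0.26 and -0.05), and the cause of these losses was not tested. No member was called lower under any alternative. The split of calls, 98 higher and 112 lower, was 108 and 49 after quantile normalization and 138 and 59 after median-ratio scaling.

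Directions of small estimates turned in 8 of 35 named members. With the Y-linked covariate these were Dnaja1 (-0.141), Dnaja2 (-0.063), Dnaja3 (-0.052), Dnaja4 (-0.068), Dnajc15 (-0.153) and Hsp90aa1 (-0.066). Hsp90aa1 was at -0.025 after quantile normalization and Hspe1 at 0.017 after median-ratio scaling. On leaving out 1 library the log2 fold change ran between -0.064 and 0.048 (Dnaja1), -0.013 and 0.049 (Dnaja2), -0.084 and 0.112 (Dnaja3), -0.015 and 0.111 (Dnaja4), -0.043 and 0.064 (Hsp90aa1), -0.165 and 0.334 (Hspa5), and -0.184 and 0.054 (Hspe1). The unknown depth means that no value has a counting error, also for members with values near 1 (Hspa1a, Hspa1b and Hspbap1).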
